A study of Mus musculus with 32 samples.

Results

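Whole kidneys from male mice collected 3 days after cisplatin were compared with kidneys collected 2 days after it. The comparison took the 8 libraries labelled male at Day 2 or Day 3 out of 32 in the series, with 4 mice per day and 1 library per mouse. All 8 mice were wild-type (wt) C57BL/6 males, 6 to 8 weeks old by the study's methods, and received a single intraperitoneal cisplatin dose of 20 mg/kg. Both days therefore carry the treatment, and the labels of the 8 mice differ in the day of collection. Total RNA of the kidney was sequenced, and the deposited values were read counts per gene together with FPKM. The other libraries came from females of the same days and from both sexes at Day 0 or Day 5, and are used below only to place the male values. The Day 0 males have no treatment named in their labels. Their libraries were uneven, with 6.46% to 23.97% of counts from mitochondrial genes and 7480 to 58804 counts of hemoglobin genes. They held 17985 to 21939 genes with a count, against 23633 to 25055 in the Day 2 males and 23997 to 24365 in the Day 3 males. Day 0 male 4 had 242 counts of Xist, against 0 to 50 in the other Day 0 males. The part of this unevenness in the Day 0 ranges below was not tested.

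Cisplatin is a platinum drug that enters proximal tubule cells through organic cation transporters, crosslinks DNA and activates the p53 program. Injured tubule cells then express secreted and surface markers such as Lcn2 (NGAL) and Havcr1 (KIM-1), release chemokines, and may die or re-enter the cell cycle. Because dying cells, infiltrating leukocytes and surviving tubules all contribute to a whole kidney extract, fewer cells of a type and less RNA per cell cannot be told apart in these bulk libraries.

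Total counts ran from 19876957 to 27487341 at Day 2 and from 18822537 to 20946652 at Day 3. The sex-linked genes matched the male label in all 8 libraries, with 0 to 5 counts of Xist. Kidney markers were present in every library: the podocyte gene Nphs1 at 27.8 to 40.3 CPM (counts scaled to the library total), the proximal tubule phosphate transporter Slc34a1 at 3030 to 5670 CPM, Umod of the thick ascending limb at 1130 to 1650 CPM and the collecting duct water channel Aqp2 at 383 to 858 CPM. Mitochondrial genes took 11.9% ± 1.70 (SD, n = 4) of counts at Day 2 and 12.01% ± 0.540 at Day 3 (difference 0.151 percentage points, two-sided exact permutation test, p = 0.886, smallest possible p 0.0286). Day 2 mouse 4 stood apart from the other 7 libraries, at -67.05 on a first principal component that held 40.2% of the variance, where the others lay between -2.47 and 19.68. The Day 2 mice were also farther from one another. The SD of log2 CPM was larger at Day 2 for 12081 of 16232 genes (74.4%), with a median SD of 0.242 at Day 2 and 0.139 at Day 3. Day accounted for 0.205 of the variance between libraries (R2 of a permutational test on distances, one-sided exact test over the 35 splits, p = 0.0857).

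No gene passed an adjusted p of 0.05 between Day 3 and Day 2 when edgeR's quasi-likelihood p-values were adjusted by the Benjamini-Hochberg method (0 of 16232 genes, 0%), and the count of DEGs (adjusted p under 0.05 and absolute log2 fold change over 1.5) was therefore 0 as well. At an unadjusted p under 0.05 there were 1410 genes (8.69%), of which 545 were higher at Day 3 (3.36% of genes tested) and 865 lower (5.33%). The 4 values of one day lay wholly above the 4 of the other for 1079 genes (6.65%), with Day 3 above in 493 (3.04%) and below in 586 (3.61%). The median log2 fold change over all genes was -0.00236, and 8192 genes (50.5%) were lower at any p. DESeq2's Wald test on the same counts called 62 of 17850 genes at an adjusted p under 0.05 (0.347%), 21 higher and 41 lower at Day 3. Of these 62, 60 were in the edgeR test, all 60 with an unadjusted edgeR p under 0.05, and 59 had groups that did not overlap. Every gene described below was short of the edgeR threshold, so each is given by its values and called higher or lower only in that sense.

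The counts bounded most differences closely. The 95% confidence interval of the log2 fold change lay within ±1 for 13647 genes (84.1%) and within ±1.5 for 15526 genes (95.7%). The median distance from estimate to bound was 0.339, falling to 0.245 for genes with a mean of at least 10 CPM and reaching 0.816 for genes under 1 CPM. A 2-fold difference in either direction was outside the interval for 97.0% of the genes with at least 10 CPM and for 31.8% of those under 1 CPM.

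**Figure D1:**
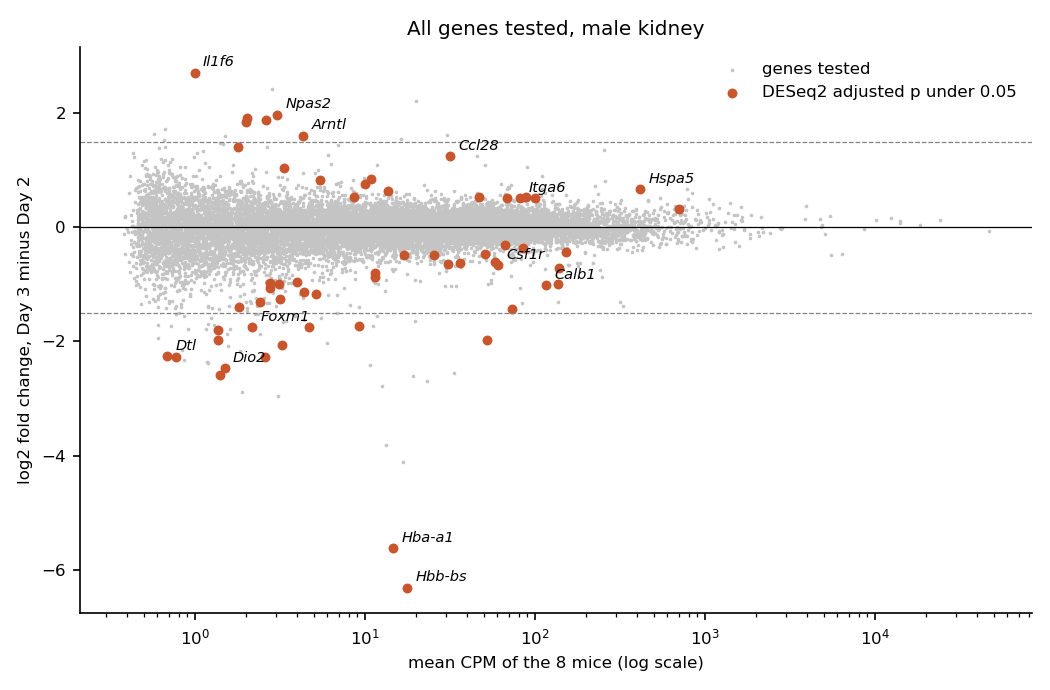
Log2 fold change (Day 3 minus Day 2, vertical axis) against the mean CPM of the 8 mice (horizontal axis, log scale) for the 16232 genes tested in male kidney, with dashed lines at ±1.5. Orange points are genes with a DESeq2 adjusted p under 0.05, selected leading genes carry their symbols, and most grey points lie close to 0 over the whole range of expression.

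Lcn2 and Havcr1, the best known markers of tubule injury, overlapped between the days. Lcn2, an iron-siderophore carrier secreted by injured tubules, stood at 4.21, 12.1, 7.54 and 35.4 CPM in the Day 2 mice and at 107.6, 27.6, 37.9 and 9.03 CPM in the Day 3 mice. The days overlapped, because Day 3 mouse 4 lay below 2 of the Day 2 mice and Day 3 mouse 2 lay below Day 2 mouse 4. The highest mouse exceeded the lowest by 8.42-fold within Day 2 and by 11.9-fold within Day 3. The log2 fold change was 1.62 (95% interval -0.12 to 3.36, adjusted p = 0.573 in edgeR's quasi-likelihood test), 0.75 without Day 3 mouse 1 and 2.52 without Day 2 mouse 4. Havcr1, a phosphatidylserine receptor of injured proximal tubule, was at 3.20, 1.65, 5.10 and 77.8 CPM at Day 2 and at 4.21, 3.38, 3.31 and 1.81 CPM at Day 3. A single animal, Day 2 mouse 4, set its Day 2 mean, and the other 7 mice covered 1.65 to 5.10 CPM. The Havcr1 log2 fold change was -2.79 (95% interval -5.30 to -0.27, adjusted p = 0.573 in edgeR) and -0.0496 without that animal. In deposited FPKM, Havcr1 ran from 0.0970 to 0.776 in the Day 0 males, from 0.5535 to 26.4 at Day 2 and from 0.610 to 1.41 at Day 3, and each treated day overlapped the Day 0 range.

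**Figure D2:**
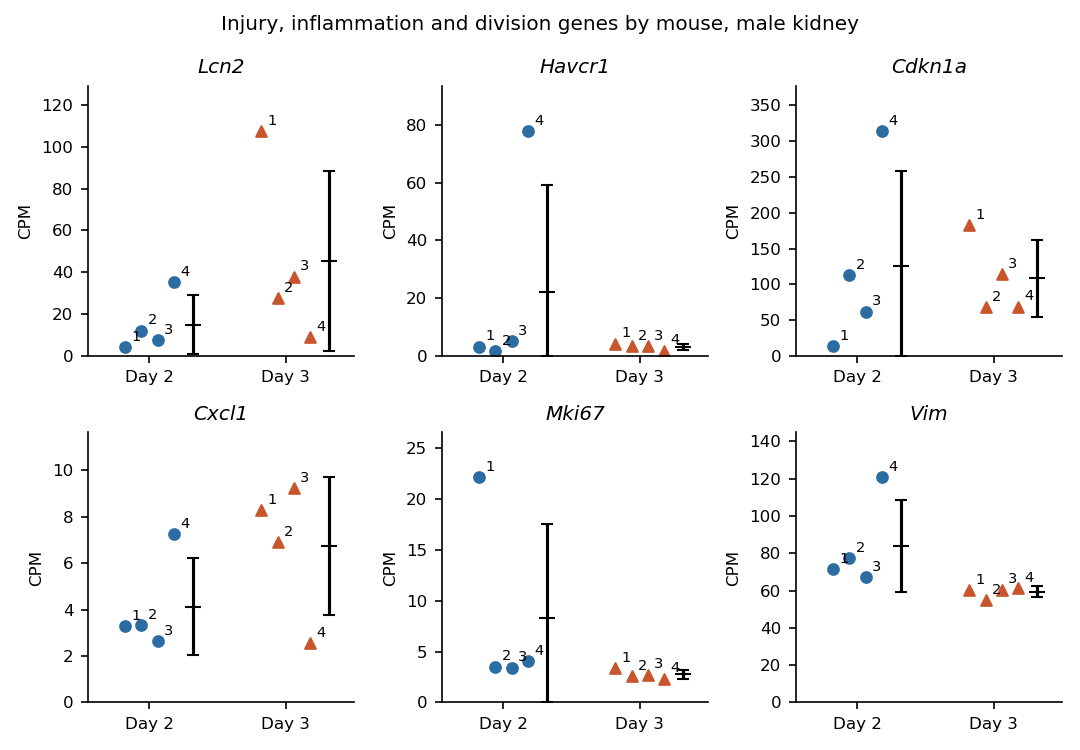
CPM (linear axis from 0) of Lcn2, Havcr1, Cdkn1a, Cxcl1, Mki67 and Vim in each male mouse at Day 2 (circles) and Day 3 (triangles), numbered by mouse, with mean ± SD (n = 4, bars cut at 0). Day 2 mouse 4 is highest for Havcr1 (77.8 CPM) and Cdkn1a (314.3 CPM), Day 2 mouse 1 for Mki67 (22.1 CPM), and for Vim all 4 Day 3 mice (55.0 to 61.4 CPM) lie below the Day 2 mice.

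The 23 tubule injury genes tested (keratins, Spp1, Clu, Sox9, Timp1, Vim and others) had a median log2 fold change of -0.183, with 10 higher and 13 lower at Day 3. Of them, 0 of 23 were higher and 2 lower at an unadjusted p under 0.05, namely Havcr1 and Vim (8.70%, against 5.33% of all genes lower and 3.36% higher). Vim, an intermediate filament of mesenchymal and dedifferentiated tubule cells, was at 71.4, 77.2, 67.0 and 120.6 CPM at Day 2 and at 60.3, 55.0, 60.5 and 61.4 CPM at Day 3, so every Day 3 mouse lay below every Day 2 mouse (log2 fold change -0.50, and -0.28 without Day 2 mouse 4). Among the 4 Day 2 mice, mouse 4 held the highest value for 20 of the 23 genes, and among the Day 3 mice, mouse 1 did so for 20. The median turned positive, to 0.212, when Day 2 mouse 4 was left out, and reached -0.314 without Day 2 mouse 1.

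The p53 target genes were evenly divided between the directions, and the division moved with single mice. Cdkn1a, the p21 cell cycle inhibitor, was at 13.2, 113.4, 61.8 and 314.3 CPM at Day 2, a 23.8-fold range, and at 182.7, 68.4, 114.2 and 69.0 CPM at Day 3, a 2.67-fold range. The Day 3 values all fell inside the Day 2 range (log2 fold change -0.21, 95% interval -1.85 to 1.44, and 0.79 without Day 2 mouse 4). In FPKM, Cdkn1a ran from 2.24 to 3.502 at Day 0, from 2.87 to 69.3 at Day 2 and from 15 to 39.8 at Day 3. Day 2 mouse 1 was thus inside the Day 0 range, and the other 7 mice were above it. Of the 30 p53 targets, 15 were higher and 15 lower at Day 3, none of the 30 had an unadjusted p under 0.05 (0 in edgeR and 0 called by DESeq2), and the median log2 fold change was -0.0113. That median was -0.149 without Day 2 mouse 1 and 0.224 without Day 2 mouse 4, and with voom weights it was 0.135, with 6 of 30 lower. The 2 of this list with the smallest p were Trp53inp1, a p53-dependent stress protein (log2 fold change 0.48), and Pmaip1, which encodes the BH3-only protein NOXA (0.32). Day 2 mouse 1 held the lowest Day 2 value for 23 of the 30 and mouse 4 the highest for 21. In FPKM, 15 of the 30 targets were above every Day 0 male in all 8 treated mice (11.5% of all genes tested were), and in single mice this count ran from 19 to 26.

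DNA repair and cell death genes also stayed close to even. The 35 genes of crosslink and excision repair had a median log2 fold change of -0.00208, with 1 higher (2.86%) and 3 lower (8.57%) at an unadjusted p under 0.05, against 3.36% and 5.33% of all genes. Ercc6, of transcription-coupled repair, was at 13.7 to 20.5 CPM at Day 2 and 19.7 to 22.5 CPM at Day 3 (log2 fold change 0.35). Of 36 cell death genes, 2 were higher (5.56%) and 0 lower at that p, with a median of -0.0441. Those 2 were Bid, which links death receptors to mitochondria (51.8, 59.4, 55.5 and 46.1 against 66.2, 63.9, 61.3 and 68.6 CPM, log2 fold change 0.29), and Birc2, an inhibitor of apoptosis (0.31), and for both every Day 3 mouse was above every Day 2 mouse.

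Among chemokines and cytokines, single members differed in both directions. Cxcl1, a neutrophil attractant, was at 3.28, 3.35, 2.65 and 7.25 CPM at Day 2 and at 8.27, 6.91, 9.22 and 2.54 CPM at Day 3. The groups overlapped, with Day 3 mouse 4 below every Day 2 mouse (log2 fold change 0.70, 95% interval -0.23 to 1.64). Tnf had 1 to 5 counts per library on both days and was not tested. Of the 20 chemokines, 1 was higher and 4 lower at an unadjusted p under 0.05 (5% and 20%, against 3.36% and 5.33% of all genes). Their median was -0.145, and 0.0668 without Day 2 mouse 4. Ccl28, an epithelial chemokine, was at 17.99, 20.6, 23.5 and 12.4 CPM at Day 2 and at 53.4, 60.9, 32.3 and 30.1 CPM at Day 3, without overlap (log2 fold change 1.25, SE 0.26, edgeR adjusted p = 0.481, DESeq2 adjusted p = 0.00258). Ccl11, an eosinophil attractant, went the other way, at 1.53, 1.07, 2.04 and 3.85 CPM against 0.737, 0.532, 0.528 and 0.635 CPM (-1.79). Of the 22 cytokines and receptors, 3 were higher (13.6%) and 1 lower (4.55%). Il13ra1, a receptor chain for IL-13, was higher in every Day 3 mouse (31.5 to 42.6 against 48.0 to 61.9 CPM, 0.53). Csf1r, the receptor that maintains macrophages, was lower in every one, at 85.5, 67.8, 62.2 and 81.6 CPM against 42.9, 47.8, 44.2 and 53.3 CPM (-0.66, SE 0.12). Il1f6, which encodes IL-36 alpha, is not counted among the 22. Its log2 fold change was 2.71 (SE 0.55), above the largest of the 22, 1.43. It was at 0.0373, 0.537, 0.153 and 0.317 CPM against 2.47, 1.79, 1.73 and 0.928 CPM. It rested on 24 counts over the 4 Day 2 libraries and 139 over the Day 3 libraries, and was listed at 0 FPKM in the Day 0 males.

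Of 25 NF-kB pathway genes, 2 were higher (8%, against 3.36% of all genes) and 0 lower (against 5.33%) at an unadjusted p under 0.05, and the median was -0.0303. These were Rel, an NF-kB subunit (0.41), and Nfkbiz, a nuclear IkB protein (12.1, 13.1, 10.7 and 12.2 against 22.6, 16.1, 17.9 and 11.3 CPM, 0.50). Rel did not overlap between days, whereas Day 3 mouse 4 placed Nfkbiz inside the Day 2 range. The STAT3 axis, meaning Stat3 and targets of the IL-6 family and STAT3, acute phase genes among them, had a median of 0.287. Of its 19 members, 13 were higher. At an unadjusted p under 0.05, 3 were higher (15.8%) and 1 lower (5.26%). Fgg, the fibrinogen gamma chain, was at 4.77, 7.64, 6.22 and 9.79 CPM at Day 2 and at 67.8, 18.7, 38.2 and 6.54 CPM at Day 3 (log2 fold change 2.21, SE 0.59). Day 3 mouse 4 again lay within the Day 2 range while mouse 1 was the highest. The other 2 higher genes were named after their values were seen: Socs3, the feedback inhibitor of STAT3 signalling (1.55), and Fga, the fibrinogen alpha chain (1.25). Orm1, an acute phase glycoprotein, was lower without overlap, at 2.76, 3.18, 1.17 and 1.63 CPM against 0.474, 0.290, 0.528 and 0.928 CPM (-1.98). Day 3 mouse 1 held the highest Day 3 value for 18 of the 19 genes. Without it the median was -0.0344, and without Day 2 mouse 4 it was 0.554.

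Antigen presentation genes were lower at Day 3 across the whole list. All 21 members of the MHC list tested had a negative log2 fold change, against 50.5% of all genes, and the median was -0.534. At an unadjusted p under 0.05, 13 were lower (5.33% of all genes were), and in 8 every Day 3 mouse lay below every Day 2 mouse (3.61% of all genes). None passed the edgeR adjustment, and DESeq2 called 2. Cd74, the invariant chain that escorts class II molecules, was at 194.5, 130.7, 122.2 and 281.3 CPM at Day 2 and at 79.0, 101.6, 86.6 and 99.1 CPM at Day 3 (log2 fold change -0.99, SE 0.24, adjusted p = 0.527 in edgeR's quasi-likelihood test, 0.0279 in DESeq2). The class II chains H2-Aa (-0.92), H2-Ab1 (-0.99) and H2-Eb1 (-0.98), named after their values were seen, also did not overlap. H2-Q6, a class I gene, was at 71.0, 57.6, 64.3 and 88.0 CPM against 42.9, 47.0, 52.3 and 41.1 CPM (-0.62), but reads of the H2 class I genes can be shared among near-identical copies, so its own level is uncertain. Day 2 mouse 4 held the highest Day 2 value in 20 of the 21 genes. Leaving out single mice moved the median between -0.632 and -0.335, and its smallest size was without that mouse.

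Other immune lists were lower in the median as well, and depended more on Day 2 mouse 4. Leukocyte markers had a median of -0.405 (18 of 22 lower, 1 of them, Csf1r, at an unadjusted p under 0.05, or 4.55% against 5.33% of all genes). Complement genes had a median of -0.240 (20 of 27 lower, 4 or 14.8% at that p) and interferon-stimulated genes one of -0.168 (23 of 30 lower, 2 or 6.67% at that p). The leukocyte and interferon shares were thus near that of all genes. Without Day 2 mouse 4 these medians were -0.167, 0.00891 and -0.00218. C2, a component of the classical pathway, was lower (-0.30), as was Cfd, the complement factor D also known as adipsin (-0.44). C1qb, a C1q chain made by macrophages, was at 24.4, 27.5, 18.7 and 51.9 CPM against 26.01, 19.1, 19.0 and 16.9 CPM, with clear overlap. Gbp2, an interferon-induced GTPase, was lower as well (-0.52). The summed level of lymphoid tissue markers moved with these lists, running from 18.6 to 183.1 CPM at Day 2 and from 15.7 to 21.8 CPM at Day 3. Its top value belonged to Day 2 mouse 4, in which the immunoglobulin gene Ighm reached 104.7 CPM against 8.09 to 9.79 CPM in the other Day 2 mice. The part of lymphoid cells in the immune results was not tested.

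Cell division genes were lower at Day 3, mainly against 1 or 2 Day 2 mice. Of 34 genes of DNA replication and the cell cycle, 31 were lower, 19 at an unadjusted p under 0.05 (55.9%, against 5.33% of all genes), and the median was -0.500. In 3 of the 34 (8.82%, against 3.61% of all genes) every Day 3 mouse lay below every Day 2 mouse. Mki67, the proliferation antigen Ki-67, was at 22.1, 3.51, 3.42 and 4.08 CPM at Day 2 and at 3.37, 2.61, 2.74 and 2.34 CPM at Day 3 (log2 fold change -1.59, SE 0.62, and -0.41 without Day 2 mouse 1). Foxm1, a transcription factor of mitotic genes, was at 6.41, 1.78, 1.84 and 3.26 CPM against 1.42, 0.967, 0.721 and 0.879 CPM (-1.75). Rrm2, the small subunit of ribonucleotide reductase, was at 10.4, 4.96, 4.08 and 8.88 CPM against 3.37, 3.09, 2.98 and 3.22 CPM (-1.16). In all 3 the groups did not overlap, and Day 2 mouse 1 was the highest. That mouse held the top Day 2 value for 26 of the 34 genes, and without it the median was -0.366. It also held the top Day 2 value for all 4 erythroid markers tested. The 9 erythroid markers counted, tested or not, summed to 281.3 CPM in it and to 48.1 to 87.2 CPM in the other Day 2 mice. Their part in the cell division values was not tested. Dtl, which directs replication factors to degradation in S phase, was among the genes with the smallest p over the whole table (1.71, 0.867, 0.816 and 1.13 CPM against 0.158, 0.338, 0.336 and 0.0977 CPM, -2.26).

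Matrix genes leaned on a single mouse. Of 38 extracellular matrix and fibrosis genes, 31 were lower at Day 3, 12 at an unadjusted p under 0.05 (31.6%, against 5.33% of all genes) and 3 without overlap (7.89%, against 3.61%), with a median of -0.327. Day 2 mouse 4 held the highest Day 2 value for 35 of the 38, and without it the median was -0.0270. Postn, a matrix protein of activated fibroblasts, was at 13.8, 11.0, 10.6 and 23.1 CPM at Day 2 and at 7.002, 8.56, 5.91 and 8.89 CPM at Day 3, and was lower in every Day 3 mouse (-0.95). Ctgf, a TGF-beta target, was at 152.0, 135.6, 99.04 and 186.5 CPM against 103.0, 61.9, 94.8 and 86.3 CPM (-0.73), with Day 3 mouse 1 just above Day 2 mouse 3.

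**Figure D3:**
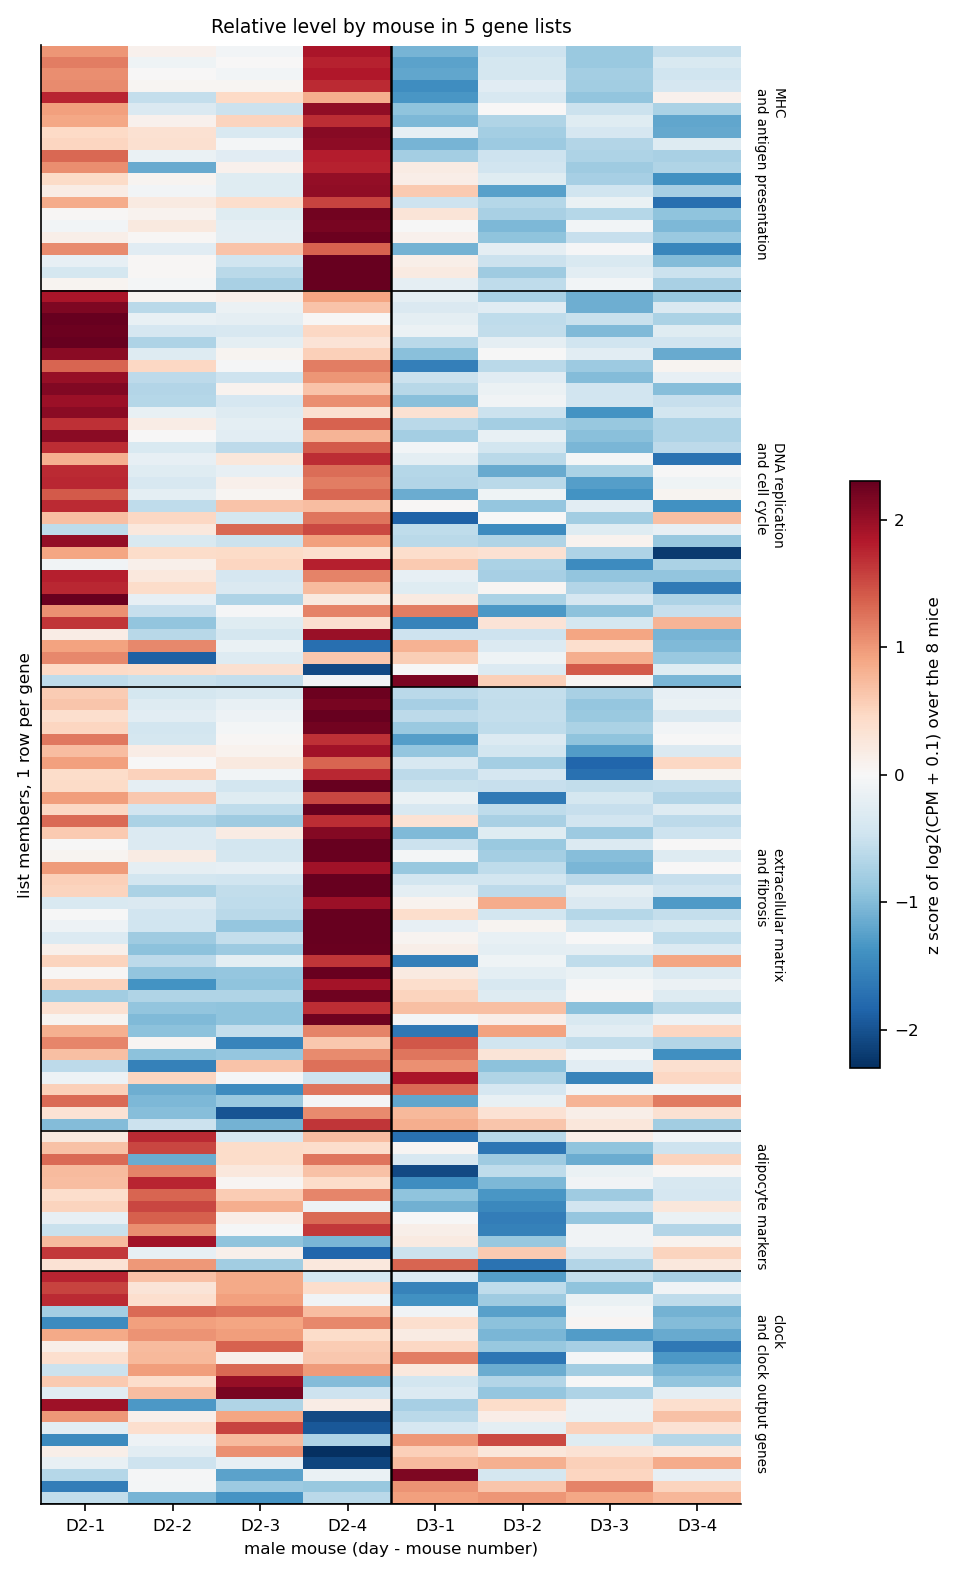
Standardized log2(CPM + 0.1) of each tested member (rows) of 5 gene lists in each male mouse (columns, Day 2 left and Day 3 right of the line), in SD units around the mean of the 8 mice with the colours capped at ±2.3. Day 2 mouse 4 stands out in the MHC and matrix lists (highest Day 2 value for 20 of 21 and 35 of 38 genes), and Day 2 mouse 1 in the cell cycle list (26 of 34).

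Proximal and thick limb genes had medians near 0, and the lists of the distal nephron held more genes that were lower. Proximal tubule transport genes, 40 in all, had a median of 0.0942, with 29 higher and 11 lower. At an unadjusted p under 0.05 there were 3 in each direction (7.50%, against 3.36% of all genes higher and 5.33% lower). Day 2 mouse 4 held the lowest Day 2 value for 28 of the 40, and without it the median was 0.0152. Slc2a5, the fructose transporter GLUT5, was at 102.4, 97.1, 94.1 and 90.6 CPM at Day 2 and at 67.2, 71.7, 78.6 and 80.7 CPM at Day 3 (log2 fold change -0.37). Slc5a1, the glucose transporter SGLT1, was at 89.7, 73.8, 75.5 and 106.8 CPM against 53.1, 62.6, 64.0 and 66.1 CPM (-0.49). For both, every Day 3 mouse lay below every Day 2 mouse. Slc22a2, the organic cation transporter that takes up cisplatin, named after its value was seen, differed by 0.02 (95% interval -0.25 to 0.28). The thick ascending limb, with 19 genes, had 0 at an unadjusted p under 0.05 in edgeR and 0 called by DESeq2 (median 0.0181).

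The list of distal convoluted tubule genes and of magnesium or calcium transport also holds Trpm7, Vdr, Cyp24a1 and Cyp27b1. At an unadjusted p under 0.05, 8 of its 24 genes were lower (33.3%, against 5.33% of all genes) and 1 higher (median -0.192). Calb1, the cytosolic calcium buffer calbindin, was at 205.3, 112.7, 113.8 and 186.2 CPM at Day 2 and at 65.1, 58.4, 80.0 and 102.9 CPM at Day 3 (log2 fold change -1.01, SE 0.24, DESeq2 adjusted p = 0.0176). Pvalb, parvalbumin of the early distal convoluted tubule, was at 17.1, 7.64, 9.18 and 19.6 CPM against 2.26, 4.79, 5.38 and 7.91 CPM (-1.39), and overlapped only through Day 3 mouse 4. In the collecting duct list, which also counts Calb1, 8 of 25 were lower (32%) and 1 higher at an unadjusted p under 0.05 (median -0.133). There, 5 were lower without overlap (20%, against 3.61% of all genes). At any p, 20 of the 25 were lower and 5 higher, with log2 fold changes up to 0.633. Foxi1, the transcription factor of intercalated cells, was at 34.8, 29.1, 29.4 and 40.2 CPM against 23.9, 21.7, 27.0 and 23.9 CPM (-0.47). Its intercalated cell companions Rhcg (-0.40) and Rhbg (-0.53), both ammonia transporters, and Atp6v1b1 (-0.29), a proton pump subunit, were named after their values were seen and did not overlap either. Leaving out single mice kept the distal median between -0.253 and -0.179 and the collecting duct median between -0.172 and -0.0773.

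In the filter and vessels, the differences were small. Of 16 podocyte genes, 0 had an unadjusted p under 0.05 in edgeR and 0 were called by DESeq2, with Tcf21 at -0.38 and Cd2ap at 0.36. Of 30 endothelial and angiogenesis genes, 1 was higher (3.33%) and 2 lower (6.67%) at that p, close to the 3.36% and 5.33% of all genes. Flt1, the VEGF receptor 1, was higher (90.7, 80.4, 95.5 and 89.0 against 124.0, 99.2, 102.6 and 98.7 CPM, 0.26), while its ligand Vegfb was lower (75.6, 67.6, 61.1 and 67.9 against 52.7, 55.5, 56.6 and 60.2 CPM, -0.27). Neither gene overlapped between days. Wnt4, a ligand of tubule repair and fibrosis, was at 9.31, 11.8, 7.24 and 12.7 CPM against 7.37, 6.28, 6.10 and 7.67 CPM (-0.58).

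In the metabolic lists, single enzymes were higher or lower at Day 3. In fatty acid oxidation, 2 of 42 were higher (4.76%, against 3.36% of all genes) and 1 lower (2.38%, against 5.33%) at an unadjusted p under 0.05, with a median of -0.0462. Fabp3, a fatty acid carrier, was at 75.9, 74.4, 71.8 and 71.4 CPM at Day 2 and at 56.0, 57.2, 58.2 and 64.6 CPM at Day 3, without overlap (-0.32). In glycolysis and gluconeogenesis, 3 of 33 were higher (9.09%) and 5 lower (15.2%), read against the same shares of all genes, with a median of -0.104. The glycolytic enzymes Eno1 (-0.36) and Tpi1 (-0.24) were both lower in every Day 3 mouse, Eno1 at 871.1 to 1243 CPM against 747.6 to 800.0 CPM. Of 28 integrated stress response genes, 3 were higher (10.7%) and 1 lower (3.57%) at that p, with a median of 0.0282. The 2 with the smallest p are enzymes of serine synthesis. Phgdh, the first step, was lower (23.7 to 36.6 against 17.1 to 22.9 CPM, -0.56). Psat1, the next, was higher (28.8, 36.9, 33.4 and 46.6 against 75.8, 41.9, 57.8 and 44.9 CPM, 0.60), with overlap only for Psat1. Qprt, of NAD synthesis from tryptophan, was lower without overlap (101.4 to 111.7 against 65.4 to 88.9 CPM, -0.42), and Sat1, which acetylates polyamines, was higher without overlap (203.4 to 242.7 against 252.7 to 318.7 CPM, 0.32). Cholesterol genes gave 0 of 24 higher and 3 lower (12.5%, against 5.33% of all genes), among them Mvk (-0.48) and Dhcr7 (-0.45).

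Among the stress programs, the 2 Nrf2 genes with the smallest p were lower without overlap: Osgin1 (59.2, 62.7, 63.4 and 78.8 against 53.1, 46.9, 47.9 and 45.4 CPM, log2 fold change -0.45) and Gstm2, a glutathione transferase with close paralogs (-0.44). At an unadjusted p under 0.05, 1 of 33 genes of the metallothionein, Nrf2 and iron list was higher (3.03%, against 3.36% of all genes). At that p, 4 were lower (12.1%, against 5.33%), and the median was -0.118. Day 2 mouse 4 held the highest Day 2 value for 27 of the 33, and without it the median was 0.0396. Of 30 immediate early genes, 3 were higher (10%) and 0 lower, with a median of 0.0265. Day 3 mouse 1 held the highest Day 3 value for 26 of the 30. Without it the median was -0.0774, and without Day 2 mouse 2 it was 0.141. Fos was at 35.1, 40.9, 20.4 and 28.9 CPM against 62.2, 47.6, 42.3 and 33.1 CPM (0.56), and Egr2 at 2.65, 2.89, 1.38 and 2.99 CPM against 6.32, 4.45, 4.42 and 2.69 CPM (0.84), each overlapping through Day 3 mouse 4. Errfi1, an inhibitor of EGF receptor signalling, was at 271.5 to 460.6 CPM against 449.3 to 723.7 CPM (0.48), and Tsc22d3, a glucocorticoid-induced leucine zipper, at 58.4 to 118.6 CPM against 46.3 to 83.2 CPM (-0.55). Cytosolic ribosomal protein genes were lower in 35 of 36 by a small amount (median -0.203), with 0 at an unadjusted p under 0.05 in edgeR and 0 called by DESeq2. Their median was -0.0620 without Day 2 mouse 4.

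The gene with the smallest p of the whole table was Npas2 (chr1:39193731-39363236, GRCm38, + strand), a transcription factor that pairs with BMAL1 in the circadian clock. It was at 1.56, 1.03, 0.816 and 1.495 CPM at Day 2 and at 5.00, 5.27, 4.80 and 4.40 CPM at Day 3. The lowest Day 3 mouse was thus more than 2-fold above the highest Day 2 mouse, and the highest mouse exceeded the lowest by 1.92-fold within Day 2 and by 1.2-fold within Day 3. The log2 fold change was 1.97 (SE 0.22, 95% interval 1.48 to 2.46, adjusted p = 0.0877 in edgeR's quasi-likelihood test, 3.35e-12 in DESeq2). It passed the edgeR threshold without Day 2 mouse 4 (log2 fold change 2.07, adjusted p = 0.0426) and did not without any other single mouse (adjusted p from 0.161 to 0.643, the highest without Day 3 mouse 2). In FPKM, Npas2 ran from 2.17 to 4.56 at Day 0, from 0.133 to 0.252 at Day 2 and from 0.715 to 0.856 at Day 3, so the Day 3 males lay between the other days. Arntl (chr7:113207465-113314126, + strand), which encodes BMAL1, was at 1.16, 3.51, 1.99 and 1.95 CPM at Day 2 and at 7.37, 5.61, 7.97 and 5.18 CPM at Day 3 (log2 fold change 1.60, SE 0.31, adjusted p = 0.425 in edgeR, 0.000614 in DESeq2). Its FPKM ranges were ordered in the same way, at 1.14 to 2.62, 0.119 to 0.361 and 0.537 to 0.818.

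Of the 20 clock and clock output genes, 3 were higher (15%, against 3.36% of all genes) and 7 lower (35%, against 5.33%) at an unadjusted p under 0.05. In each direction 3 were free of overlap (15%, against 3.04% of all genes above and 3.61% below), and the list median was -0.200. Beside Npas2 and Arntl, the members named here were chosen after their values were seen. Clock, the other partner of BMAL1, was higher, at 43.9, 40.5, 43.8 and 26.01 CPM against 55.9, 57.1, 53.2 and 58.0 CPM (0.54). Dbp, a PAR-domain factor whose gene is driven by BMAL1, was lower, at 217.0, 146.0, 174.7 and 150.9 CPM against 81.7, 110.8, 99.2 and 129.2 CPM (-0.71). Dbp ran from 0.383 to 10.3 FPKM at Day 0, from 37.8 to 56.0 at Day 2 and from 21.1 to 33.7 at Day 3, and the Day 3 males again lay between. Usp2 (-0.43), a deubiquitinase, and Ciart (-0.88), a repressor of the clock, were also lower. The hour at which kidneys were collected is not given in the sources used here, and the part of the hour in these values was not tested.

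The Arntl promoter is shown because the protein it encodes pairs with that of Npas2, the gene with the smallest p. The ROR element, bound by ROR and REV-ERB receptors, is spelled AA, any base, T, any base and then GGTCA, and was searched on both strands of RefSeq promoter windows (GRCm38.p6, 300 bases, 250 before to 50 after each start). It occurred in 193 of 27025 genes (0.714%) and, among the 17 clock list members with a window, in 1. The E-box, spelled CACGTG and bound by BMAL1 with its partners, occurred in 2187 genes (8.09%) and in 5 of those 17, namely Tef, Per1, Cry1, Ciart and Bhlhe41, with Dbp not among them. The window chr7:113207528-113207557 (+ strand) is printed with the fixed letters of the element in capitals, and the element starts 27 bases past the RefSeq start at 113207511, which lies inside the interval given for the gene above.
Arntl: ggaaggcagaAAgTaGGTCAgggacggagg

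Of 26 chaperone genes, 3 were higher at an unadjusted p under 0.05 (11.5%, against 3.36% of all genes), and all 3 act in the endoplasmic reticulum. Hspa5 (chr2:34771970-34777547, + strand), which encodes BiP, the chaperone that binds unfolded proteins in the endoplasmic reticulum, was at 331.9, 365.1, 321.7 and 264.3 CPM at Day 2 and at 484.9, 548.0, 461.7 and 535.2 CPM at Day 3. The days did not overlap (log2 fold change 0.66, SE 0.11, 95% interval 0.41 to 0.91, adjusted p = 0.425 in edgeR, 9.33e-05 in DESeq2). In FPKM, Hspa5 ran from 44.98 to 92.45 at Day 0, from 48.97 to 66.86 at Day 2 and from 84.23 to 100.9 at Day 3. Pdia4, a disulfide isomerase of the same compartment, was at 87.2, 88.5, 86.8 and 97.1 CPM against 107.6, 110.1, 106.1 and 113.6 CPM (0.28). Hsp90b1 (GRP94), named after its value was seen, was at 226.5, 240.0, 223.2 and 155.6 CPM against 249.7, 311.4, 254.1 and 320.4 CPM (0.43). All 3 were free of overlap. Calr (0.09) and Canx (0.17) overlapped, and Cryab, a small heat shock protein of the cytosol, was lower (-0.62). The list median was 0.0922, and 0.0235 without Day 2 mouse 4. At an unadjusted p under 0.05, 1 of the 26 was lower (3.85%, against 5.33% of all genes).

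The endoplasmic reticulum stress response element, spelled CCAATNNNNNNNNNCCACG and searched on both strands of the same windows, is printed for these genes because it is the textbook site of the unfolded protein response. It occurred in 37 of 27025 genes (0.137%) and in 4 of the 20 chaperone list members with a window. The capitals mark its fixed letters. The windows are chr2:34772020-34772048 (+) for Hspa5, chr10:86705633-86705661 (-) and chr10:86705528-86705556 (+) for the first and second of the pair in Hsp90b1, chr11:50325795-50325823 (-) for Canx and chr8:84847070-84847098 (+) for Calr. The levels of Calr and Canx overlapped between days, and those of Hspa5 and Hsp90b1 did not. The window of Pdia4 did not hold these letters.
Hspa5: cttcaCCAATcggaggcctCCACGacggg
Hsp90b1, first: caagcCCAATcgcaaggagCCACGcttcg
Hsp90b1, second: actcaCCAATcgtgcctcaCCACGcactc
Canx: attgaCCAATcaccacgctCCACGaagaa
Calr: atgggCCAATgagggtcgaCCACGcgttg

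A further group of leading genes was higher at Day 3. Itga6 (chr2:71745616-71858416, + strand), the laminin-binding integrin alpha 6, was at 67.8, 65.4, 70.5 and 65.9 CPM at Day 2 and at 91.1, 102.4, 93.0 and 97.9 CPM at Day 3. Its difference was modest in size but far above the spread within either day (log2 fold change 0.51, SE 0.07, adjusted p = 0.205 in edgeR, 6.01e-07 in DESeq2). Ddc, which makes dopamine in the proximal tubule, was at 75.8, 84.1, 67.1 and 63.6 CPM against 119.1, 97.7, 104.1 and 100.8 CPM (0.54). Igsf11, an adhesion protein of the immunoglobulin superfamily, was at 65.4, 51.2, 51.5 and 56.9 CPM against 78.6, 82.6, 72.0 and 86.2 CPM (0.50). Adam11, a disintegrin without protease activity, had a log2 fold change of 0.85 (6.16 to 9.83 against 12.5 to 15.1 CPM). Phyhd1 had one of 0.82 (3.26 to 4.28 against 5.80 to 8.32 CPM), Ctxn3 one of 1.40 (0.544 to 1.49 against 2.11 to 2.95 CPM) and the clone-named antisense gene AC154546.2, whose reads may belong to the gene on the opposite strand, one of 0.53 (6.89 to 7.35 against 8.46 to 10.9 CPM). Together with Npas2, Arntl, Hspa5, Il1f6 and Ccl28 these made up the 12 higher genes with the smallest p.

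**Figure D4:**
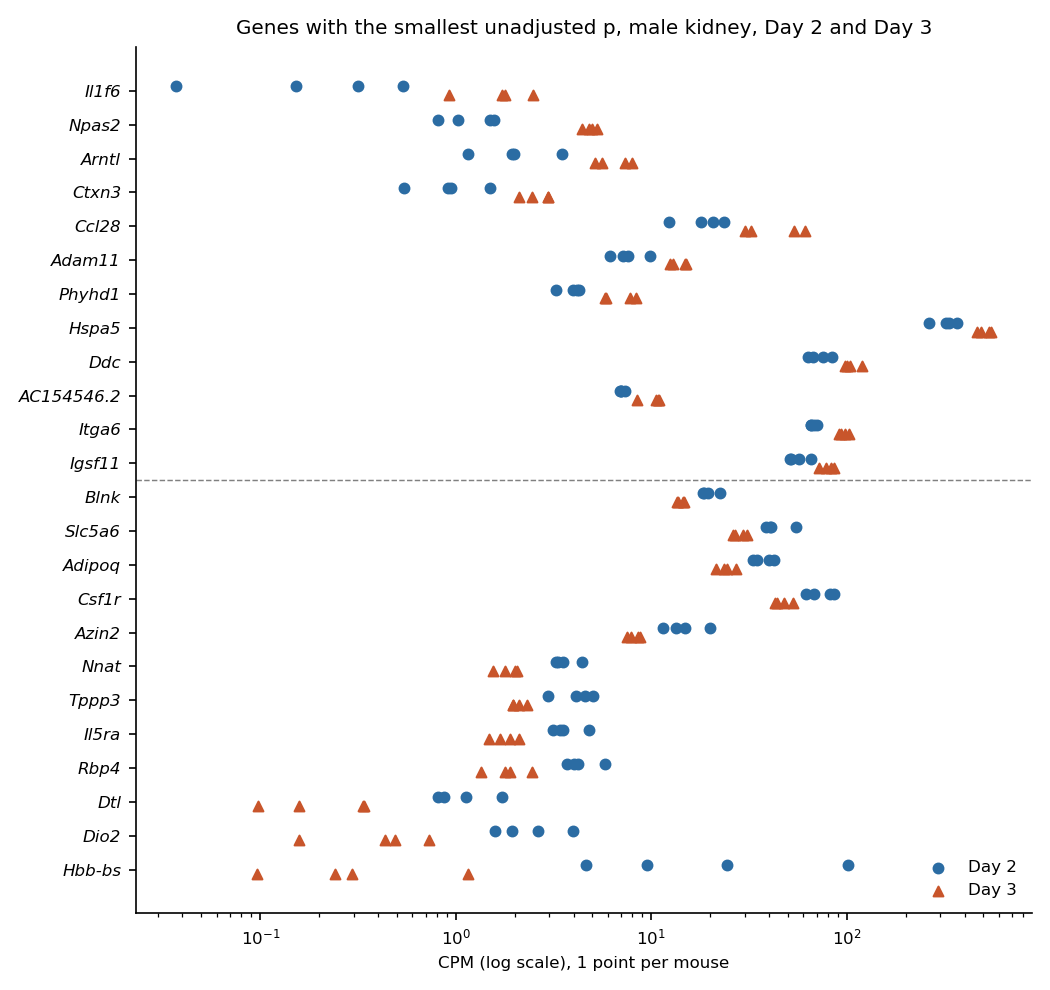
CPM by mouse (log axis) for the genes with the smallest unadjusted p among those with no overlap between days in male kidney, higher at Day 3 and lower at Day 3, with Day 2 mice as circles and Day 3 mice as triangles. Npas2 shows a wide gap between days (0.816 to 1.56 against 4.40 to 5.27 CPM), and Hbb-bs spreads from 4.64 to 101.1 CPM within Day 2.

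Among the 12 lower genes, several are known from fat tissue. Adipoq, the adipocyte hormone adiponectin, was at 33.3, 42.2, 34.7 and 39.9 CPM at Day 2 and at 23.6, 21.3, 24.4 and 27.1 CPM at Day 3, without overlap (log2 fold change -0.64, SE 0.11, adjusted p = 0.425 in edgeR, 0.000936 in DESeq2). Dio2, the deiodinase that activates thyroid hormone, was at 2.65, 3.96, 1.58 and 1.95 CPM against 0.158, 0.725, 0.432 and 0.488 CPM (-2.47, SE 0.42). Rbp4, the retinol carrier, was at 3.72 to 5.82 CPM against 1.35 to 2.44 CPM (-1.25), and Nnat, neuronatin, at 3.26 to 4.40 CPM against 1.55 to 2.07 CPM (-0.97). All 12 adipocyte markers were lower, 7 at an unadjusted p under 0.05 (58.3%, against 5.33% of all genes) and 4 without overlap (33.3%, against 3.61%), with a median of -0.629 (between -0.701 and -0.480 when single mice were left out, the smallest size without Day 2 mouse 2). That mouse held the highest Day 2 value for 9 of the 12, and also for all 6 adrenal and 7 of 10 hepatocyte markers. Their summed level was 1114 to 2185 CPM at Day 2 and 1093 to 1521 CPM at Day 3. Without Lpl, which tubules also express, it was 755.5, 1082, 742.6 and 814.2 CPM against 543.4, 467.6, 606.9 and 659.5 CPM and did not overlap. The part of perirenal fat in these genes was not tested.

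The remaining lower genes had varied roles. Hbb-bs, an adult beta-globin, was at 101.1, 9.54, 4.64 and 24.3 CPM at Day 2 and at 1.16, 0.0967, 0.240 and 0.293 CPM at Day 3 (log2 fold change -6.31, 95% interval -8.92 to -3.70, and -4.87 without Day 2 mouse 1 or -7.35 without Day 3 mouse 1), and its reads can be shared with a near-identical copy. Hba-a1 followed it (-5.61, and -4.16 without Day 2 mouse 1). The 9 erythroid markers counted, tested or not, summed to 48.1 to 281.3 CPM against 25.3 to 42.2 CPM. They include Slc4a1, which is also on the collecting duct list. The part of blood left in the kidneys was not tested. Il5ra, a receptor chain for IL-5, was at 3.16 to 4.81 CPM against 1.47 to 2.10 CPM (-1.06), and Blnk, a B cell linker protein, at 18.4 to 22.5 CPM against 13.6 to 14.8 CPM (-0.48). Slc5a6, a sodium-dependent vitamin transporter, was at 55.1, 40.8, 40.6 and 38.7 CPM against 26.8, 26.2, 31.0 and 29.3 CPM (-0.63). Azin2, an antizyme inhibitor of polyamine metabolism (-0.86), and Tppp3, a tubulin-binding protein (-1.002), completed the 12 with Csf1r and Dtl.

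Marker genes of tissues next to the kidney were uneven between libraries. The adrenal markers summed to 733.7 CPM in the highest Day 2 mouse and 13.6 CPM in the lowest, against 5.14 to 80.0 CPM at Day 3. Cyp21a1 and Cyp11a1, steroid synthesis enzymes, reached 118.5 and 92.1 CPM in Day 2 mouse 2. Urothelium markers summed to 50.1 to 143.5 CPM at Day 2 and to 39.4 to 48.7 CPM at Day 3, and all 9 were lower (median -0.634, and -0.194 without Day 2 mouse 4, which held the highest Day 2 value for all 9), with the keratin Krt14 at 0.931, 1.73, 0.663 and 6.25 CPM against 0.369, 0.628, 0.240 and 0.342 CPM. Hepatocyte markers overlapped widely, at 95.4 to 232.7 CPM against 129.5 to 166.9 CPM. The part of these tissues in any other gene was not tested.

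**Figure D5:**
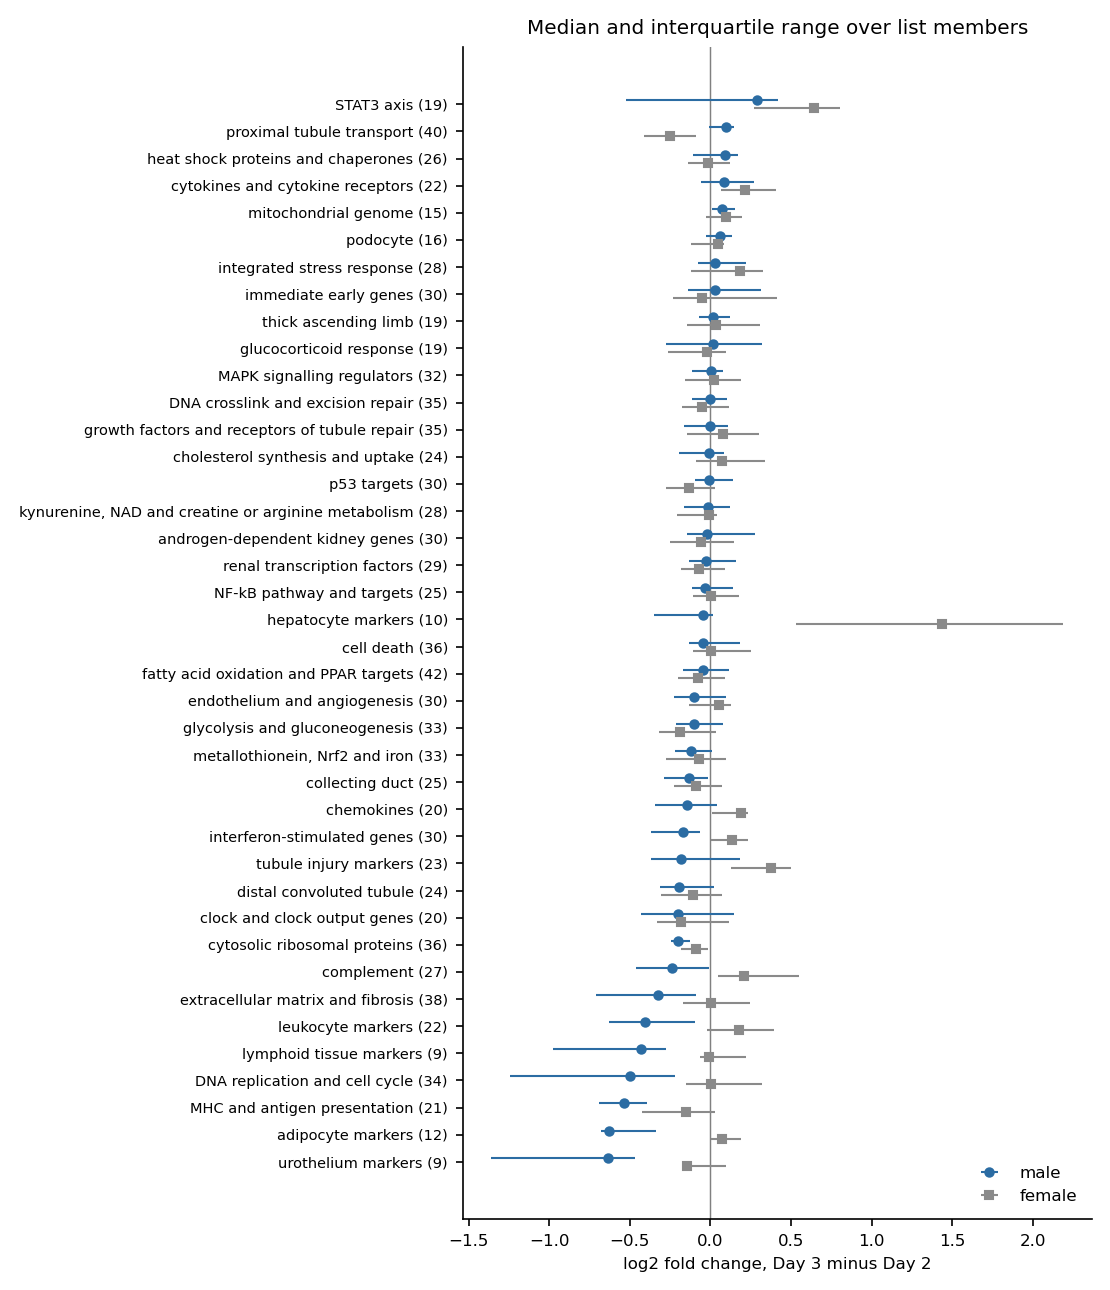
Median (point) and interquartile range (line) of the log2 fold change, Day 3 minus Day 2, over the members of the gene lists drawn. The number tested is in brackets, and circles are male and squares female kidney. The adrenal list (median -2.62 in males and 10.1 in females) is not drawn. Lists with few genes tested are also left out: erythroid (4, male median -3.60), skeletal muscle (3) and exocrine pancreas and gut (2). In males the urothelium (-0.634) and adipocyte (-0.629) lists sit lowest, then the MHC list at -0.534 and the cell cycle list at -0.500. The lymphoid (-0.431), leukocyte (-0.405) and matrix (-0.327) lists follow, and the STAT3 axis is at 0.287. Most other lists lie near the median of all genes.

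Female mice treated in the same way gave 0 of 16974 genes at an edgeR adjusted p under 0.05 between the same days, with 678 (3.99%) at an unadjusted p under 0.05 and 74 called by DESeq2. All 6 adrenal and 3 of 10 hepatocyte markers were among those 74, with female list medians of 10.1 and 1.44, and their part in the other female values was not tested. The difference between the male and the female day effect was tested as a sex by day interaction, for which 0 of 17517 genes passed the adjustment in edgeR, 791 (4.52%) had an unadjusted p under 0.05 and DESeq2 called 64, among them the 6 adrenal and 2 of the hepatocyte markers. No male value above is therefore shown by the edgeR test to be particular to males. Side by side, the female log2 fold change was 0.11 for Npas2, 0.46 for Itga6, 0.24 for Hspa5 and 0.26 for Arntl. For Npas2 the interaction had an adjusted p of 0.302 in edgeR and 0.00538 in DESeq2 (male minus female 1.85). Among the leading genes, DESeq2 also called it for Nnat (-1.31, adjusted p = 0.00648), Hbb-bs (-6.62, 0.0175) and Dtl (-2.78, 0.0333). In edgeR their adjusted p values ran from 0.302 to 0.501. The female log2 fold change was 2.74 for Lcn2, 2.76 for Havcr1 and 0.77 for Mki67, and the interaction for Havcr1 was -5.56 (male minus female, adjusted p = 0.660 in edgeR). Dbp and Usp2 were lower in both sexes (-0.86 and -0.49 in females), as were Foxi1 (-0.46) and Rhcg (-0.54). The MHC list had a female median of -0.149 with 7 of 21 genes higher, the cell cycle list one of 0.0046 with 17 of 34 higher, and proximal tubule transport one of -0.251 with 3 of 40 higher. The interaction had an unadjusted p under 0.05 for 12 of the 34 cell cycle genes, 3 of the 21 MHC genes and 0 of the 40 proximal tubule genes.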

How the data were processed

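Total RNA from kidneys of 32 C57BL/6 mice was sequenced by the authors with paired 150 bp reads. Raw counts and FPKM of 54532 genes were deposited by the authors. The study names GRCm38 and the submitters' notes name GRCm39, HTSeq and DESeq2, and 53585 of the 54495 genes matched by ID had the coordinates of the GENCODE M21 annotation of GRCm38, so coordinates are given in that build. The aligner and strand setting are not given in the sources used here, so genes that share reads with close copies or antisense partners are uncertain.

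Libraries were grouped by their labels, and the 8 male Day 2 and Day 3 libraries were fitted together. Genes were filtered with filterByExpr, scaled by TMM and tested with edgeR 4.0.16 (robust quasi-likelihood test, Benjamini-Hochberg adjustment, R 4.3.3). DEGs needed an adjusted p under 0.05 together with a log2 fold change beyond ±1.5. DESeq2 1.42.0, limma 3.58.1 with voom weights, other filters and scalings, single mice left out, wider fits and a replicate block were alternatives, and a fit of both sexes and wider fits less 1 doubtful library were added after the data were seen. CPM used TMM-scaled totals, and the deposited FPKM served only for levels across days. Scripts were tested on simulated counts.

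The members and gene lists were chosen with earlier results of these data known. Genes named were the 12 per direction with the smallest unadjusted p (no overlap between days, at least 1 CPM in the higher group, no predicted-gene symbol of the Gm or Rik kind), up to 2 per list, and a fixed set of injury, inflammation and cell cycle genes, because no gene passed. Some genes that met this rule are not reported here. Each library is 1 mouse. Depth limits genes under 1 CPM most, and intervals of fold changes cover both counting error and spread between mice.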

Additional observations from a re-analysis of the deposited data

Results flagged for a closer look

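Of 212 groups of 4 mice examined (the named genes and the library measures, at each day), 17 had 1 mouse whose gap to its nearest neighbour took up more than Dixon's critical share of the range, and chance alone marks about 1 group in 20. At Day 2, mouse 4 stood alone for Ighm (104.7 CPM), Havcr1 (77.84 CPM), Igkc (57.63 CPM) and Cxcl1 (7.25 CPM), above the other 3 mice in each. Mouse 2 stood above the others for the adrenal genes Cyp21a1 (118.5 CPM) and Cyp11a1 (92.05 CPM) and for the hepatocyte gene Alb (53.07 CPM). Mouse 1 stood above them for Mki67 (22.12 CPM) and Slc5a6 (55.09 CPM).

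At Day 3, mouse 1 stood above the others for Cyp21a1 (7.16 CPM), Cyp11a1 (7.055 CPM), Flt1 (124.0 CPM) and Pmaip1 (19.06 CPM), and below them in total counts (18822537). Mouse 2 was below the others for Vim (55.0 CPM) and AC154546.2 (8.458 CPM), and mouse 4 above them for Rel (4.541 CPM). No cause of these values was tested.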

How the results depend on the processing

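The count of male genes at an adjusted p under 0.05, 0 in edgeR, was also 0 with DESeq2 size factors, at least 10 counts in every library, no mitochondrial genes, a fit over the 4 male groups, over all 8 groups, or over both sexes with sex as a covariate. It was 62 with DESeq2's Wald test (22 DEGs), 1 without a filter on low counts (1 DEG, Npas2, adjusted p = 0.00236) and 2 with limma voom weights (1 DEG; Npas2, adjusted p = 0.0134, and Itga6, 0.0456). Leaving out single mice gave 0 to 1 for both counts, the 1 being Npas2 without Day 2 mouse 4. The cause of these differences was not tested. Genes at an unadjusted p under 0.05 ranged from 226 (8 groups) to 2139 (without Day 2 mouse 3). The 4-group and 8-group fits include 1 Day 5 library, labelled male and numbered 1, with 4153 counts of Xist against 59 to 260 in the other Day 5 males, which goes against that label. Without it they gave 0 genes at an adjusted p under 0.05 and 379 and 271 at an unadjusted p under 0.05, against 270 and 226 with it.

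Same-numbered Day 2 and Day 3 mice were not treated as pairs, because each library is 1 mouse. Their deviations from the day's mean correlated at -0.333, -0.065, 0.087 and -0.209, and those of differently numbered mice at -0.203 to 0.289. These values cannot show whether same-numbered mice shared a batch. With the replicate block the male count was 1 (1 DEG, Hbb-bs) and the female count 5 DEGs, and the interaction gave 0. In females the DEGs were 61 with DESeq2, 2 without a filter, and 0 to 28 when single mice were left out, the 28 without Day 3 mouse 2. The interaction gave 64 genes with DESeq2 and 1 without a filter, and 0 to 0 when single mice were left out. R2 was 0.243 over the 500 most variable genes, where the exact p was 0.0286, the smallest it can be, and 0.193 to 0.268 when single mice were left out. The difference in mitochondrial share ran from -0.458 to 0.873 percentage points and turned negative without Day 2 mouse 2, Day 2 mouse 4 (-0.0914) or Day 3 mouse 4 (-0.0461).

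Of 103 named genes, 7 changed direction in the fit of both sexes: Havcr1 (0.091), Dhcr7 (0.32), Cyp21a1 (2.40), Cyp11a1 (1.76), Alb (1.15), Apoa2 (0.0803) and Vil1 (-0.10). Voom weights reversed Igkc (0.35) and Cdkn1a (0.73), and the replicate block reversed Cdkn1a (0.29). Leaving out single mice reversed 4, over these ranges of log2 fold change: -2.10 to 0.0509 for Alb, -1.93 to 0.51 for Igkc, -0.00809 to 0.0475 for Vil1 and -0.59 to 0.79 for Cdkn1a. Values below about 1 CPM rest on few counts, and 4 mice per day limit every test.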
